A study of Caenorhabditis elegans with 2 samples.

Results

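Distal intergenic autosomal LIN-35 peaks are the sites of LIN-35 binding on chromosomes I to V that lie between protein-coding genes and away from their starts. A peak was counted when its summit, the position of highest enrichment given by the authors, lay outside every protein-coding gene, more than 1000 bp from every protein-coding 5′ end, and more than 500 bp from every tRNA, snoRNA or snRNA 5′ end. Of the 3838 peaks in the authors' list that passed an irreproducible discovery rate (IDR) threshold, 554 met this rule. They made up 14.4% of the list and 16.5% (95% interval 15.3 to 17.8%) of its 3353 autosomal peaks. All intervals here are exact binomial intervals over peaks and cover counting error only.

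The data are chromatin immunoprecipitation with sequencing (ChIP-seq) of LIN-35 in whole, mixed-sex first-stage (L1) larvae of Caenorhabditis elegans. The single group was strain YL409, with genotype unc-119(ed3)III and the transgene vrIs60, and it had 2 biological replicates. vrIs60 drives LIN-35 tagged with GFP and FLAG under the gene's own promoter and supplies a working unc-119, so both replicates hold the tagged protein and the unc-119 mutation. No untagged strain was analysed here, and peak lists cannot show which cells of the larva bound a site or check the stage by marker genes.

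LIN-35 is the worm homologue of the mammalian retinoblastoma (Rb) pocket proteins. With the E2F-DP heterodimer EFL-1-DPL-1 and the MuvB core it forms DREAM, a complex that represses target genes from their promoters. EFL-1-DPL-1 binds the E2F consensus, and the MuvB subunit LIN-54 binds the CHR element, a short AT-rich sequence. The best known DREAM sites are at promoters, and the peaks described here are those that lie between genes and away from annotated promoters.

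The sequences at the summits differed between these peaks and those at gene starts, so examples are shown first. All are 30 bases from the RefSeq WBcel235 genome, the same assembly as ce11, written 5′ to 3′ on the strand that bears the motif, with the motif in capitals. The first set shows E2F consensus matches, with the letters TTCCCGC, else TTCGCGC, else TTGCCGC, else TTGGCGC. They are the strongest distal peaks on the autosomes shown that held a match, each named by the gene with the nearest start.
H12I13.1, chrII:6061715-6061744 (+): atgtgcaatcaaTTGGCGCgtaattcaaaa
F53E10.5, chrV:2600687-2600716 (+): attttttctacaTTGCCGCcaactttttca
pqn-42, chrII:2451220-2451249 (-): ggccggaaattTTCGCGCcgcaaatcctcg
ppm-2, chrIII:4649405-4649434 (+): tgcatcgggttgTTCCCGCacatgaggggg

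The second set shows the octamer AGACGCAG, which of all 8-base words had the largest difference in percentage points between distal summits and their side windows and was chosen for that reason after the counts were seen. By ratio, other words stood higher. It resembles the sequence known for EOR-1, a zinc-finger protein, and a match says nothing of which factor was there.
Y17G7B.17, chrII:12102551-12102580 (+): agagagatgagAGACGCAGatgagaaaaga
F54F12.1, chrIII:13061328-13061357 (-): aacaacgacagAGACGCAGatagcttgaca
grd-6, chrV:9220607-9220636 (+): gtcatgagcggAGACGCAGagaaaattagt
egl-9, chrV:10466733-10466762 (-): tgagagcacggAGACGCAGattgtgttgga

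The third set shows GA repeats (GAGAGAGA, with alternating runs of at least 8 bases in capitals), again at the strongest peaks on these autosomes. In the windows near T04C4.3 and T19C3.4, letters of the octamer stand beside the repeat.
H05C05.2, chrIII:2966671-2966700 (+): GAGAGAGAGccGAGAGAGAaaaagagaagc
Y17G7B.17, chrII:12102537-12102566 (+): gagaaaccacAGAGAGAGAGAtgagagacg
aakg-1, chrIII:12583717-12583746 (+): aggggaatcacAGAGAGAGAcacagacgga
T04C4.3, chrIV:2219659-2219688 (-): cgagagatacAGAGAGAGAcgcagtgtact
T19C3.4, chrIII:623933-623962 (+): aacgaagtacGAGAGAGAGAcgcagagagt

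GA repeats and the octamer were common at distal summits, and the E2F consensus was less common there than at gene starts. Within 50 bp of the summit, 97 of 554 distal peaks (17.5%, 14.4 to 20.9%) held a GA repeat on either strand, against 106 of 2282 autosomal peaks within 1000 bp of a protein-coding start, called start-proximal here (4.65%, 3.82 to 5.59%). Over all autosomal IDR peaks the share was 7.96%. In windows of the same size 500 bp to either side of the distal summits it was 0.993%. It was 0.904% over 186046 windows of 101 bp that tile the autosomal bases meeting the rule. The repeat was thus rare in distal sequence and concentrated at the summits.

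The octamer AGACGCAG lay within 50 bp of 110 distal summits (19.9%, 16.6 to 23.4%), against 258 start-proximal summits (11.3%, 10.04 to 12.7%), with 13.2% over all autosomal IDR peaks. The windows beside the distal summits held it in 0.632% of cases and the tiled windows in 0.649%. Its neighbouring bases were also alike from peak to peak. A G stood directly before the octamer at 96 of the 110 distal peaks, an A directly after it at 87, and both at 78 (70.9%), against 190 of 258 (73.6%) at start-proximal peaks. At 23 distal peaks a GA repeat and the octamer occurred together, separated by a median of 27 bases, and at 7 of these they lay within 10 bases of each other or overlapped. GA repeats and the octamer share letters, so overlapping sequence can hold both.

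The E2F consensus lay within 50 bp of 49 distal summits (8.84%, 6.61 to 11.5%), against 359 start-proximal summits (15.7%, 14.3 to 17.3%), with 13.7% over all autosomal IDR peaks. At distal peaks the share was 4.24% in the side windows and 3.58% in the tiled windows, so the summit share was 2.09 times that of the side windows, against 4.13 times at start-proximal peaks. By letters, TTCCCGC occurred at 15 distal peaks, TTCGCGC at 16, TTGCCGC at 7 and TTGGCGC at 15. The reversed letters of the consensus, used as a comparison of the same base composition, were found at 25 distal peaks (4.51%) and at 10.1% of start-proximal peaks. Their side windows held them in 1.44% of cases at distal peaks and 1.86% at start-proximal peaks. The reversed letters thus exceeded their sides by a larger ratio than the consensus did in both classes, so the ratio does not set the consensus apart from letters of like composition.

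Peaks inside protein-coding genes and over 1000 bp from starts, the class nearest to distal peaks in strength, had motif shares between those of distal and start-proximal peaks. Of these 467 peaks, 62 held a GA repeat (13.3%, 10.3 to 16.7%), 72 the octamer (15.4%, 12.3 to 19.02%) and 48 the E2F consensus (10.3%, 7.68 to 13.4%). For each of the 3 motifs this interval overlapped that of distal peaks.

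The CHR element (TTTGAA or TTCGAA) was less common at distal summits than beside them. It occurred within 50 bp of 98 distal summits (17.7%, 14.6 to 21.1%), against 720 start-proximal summits (31.6%, 29.6 to 33.5%) and 26.7% of all autosomal IDR peaks. The side windows of distal peaks held it in 37.4% of cases and the tiled windows in 35.8%. Peaks inside genes were alike in this, with 14.8% at the summits and 33.5% in the side windows. Start-proximal peaks were not, with the CHR element at 31.6% of summits and in 30.8% of their side windows. GC content was higher at the summits than beside them in all of these classes, including start-proximal peaks, where the CHR share was not lower. The median GC content within 50 bp was 47.5% at distal summits and 32.9% beside them, against 48.5% and 36.1% at peaks inside genes and 45.5% and 37.1% at start-proximal peaks. Of the distal peaks, 93.3% had summits richer in GC than their own sides. The part of GC content in the motif counts was not tested.

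**Figure D1:**
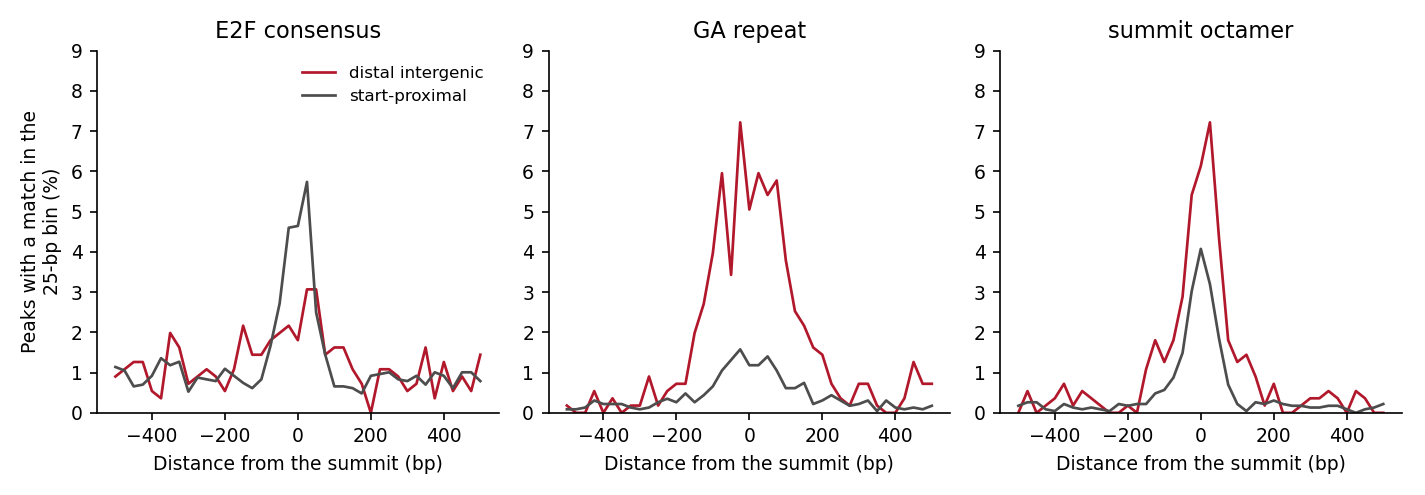
Share of peaks with a motif match in each 25-bp bin (y axis, %) by distance from the summit (x axis, bp), for distal intergenic peaks (red) and start-proximal peaks (dark grey); the summit octamer is the 8-base word given in the text. The GA repeat reached 7.22% of distal peaks in the bin 25 bp left of the summit, against 1.58% of start-proximal peaks, while the E2F consensus reached 5.74% of start-proximal peaks 25 bp to the right, against 3.07% of distal peaks.

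The profile of motifs around the summit shows a broad GA maximum and a narrower octamer maximum at distal peaks. Where a match lay within 50 bp, its median distance from the distal summit was 19.5 bp for the octamer, 20.5 bp for the GA repeat and 25 bp for the E2F consensus. Widening the window to 100 bp raised the share with a GA repeat to 30.1% (26.3 to 34.2%) of distal peaks, against 7.62% of start-proximal peaks. At that width it was 23.1% (19.4 to 27.2%) of peaks inside genes and 13.5% of all autosomal IDR peaks. In all, 184 distal peaks (33.2%) held a GA repeat or the octamer within 50 bp, against 342 start-proximal peaks (14.99%). None of the 3 motifs (GA repeat, octamer and E2F consensus) was at 329 distal peaks (59.4%), against 1611 start-proximal peaks (70.6%). The octamer was chosen from these distal summits, so both comparisons lean towards the distal class. These combined shares were not computed for peaks inside genes.

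Distal peaks were weaker than start-proximal peaks, so the motif shares were also compared within bands of rank, where rank 1 is the strongest IDR peak by the authors' signal. The GA repeat was more frequent at distal than at start-proximal peaks in all 5 bands, although the strongest, ranks 1 to 500, held only 13 distal peaks. It occurred at 27.2% of distal peaks ranked 1001 to 1919, against 12.7% of peaks inside genes and 6.15% of start-proximal peaks in that band. In ranks 3001 to 3838 it was at 14.3% of distal peaks, against 9.66% of peaks inside genes and 5.46% of start-proximal peaks. Against peaks inside genes the order was not the same in all bands. In ranks 1920 to 3000 the GA share was 13.0% of distal peaks and 16.9% of peaks inside genes. In ranks 501 to 1000 it was 19.1% and 18.9%, and in ranks 1 to 500 it was 2 of 13 peaks and 0 of 13. The octamer share was also higher at distal than at start-proximal peaks in each band. The difference was largest in ranks 501 to 1000, with 31.9% of 47 distal peaks against 11.1% of start-proximal peaks. It was smallest in ranks 3001 to 3838, with 16.9% against 14.1%. Between these bands there was no steady decline, with 17.6% against 10.8% in ranks 1001 to 1919 and 21.9% against 14.2% in ranks 1920 to 3000. The E2F consensus was lower at distal peaks in the bands of ranks 501 to 1000 (10.6%, against 19.0% of start-proximal peaks) and 1001 to 1919 (7.35%, against 15.5%). In the 2 weakest bands it was close in both classes, with 6.51% of distal peaks against 6.91% of start-proximal peaks, and 10.6% against 9.48%. The difference in E2F share was thus seen above rank 1920 and not below it.

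Among intergenic peaks, the GA share changed with distance from the nearest protein-coding start before the 1000-bp limit was reached. It was 3.21% within 250 bp of a start, 3.87% at 251 to 500 bp, 10.6% at 501 to 900 bp and 20.6% at 901 to 1000 bp. Just inside the rule, at 1001 to 1100 bp, it was 18.9% of 37 peaks. The GA share showed no step at the limit. These 37 peaks had a median rank of 2362 and the 34 intergenic peaks just outside it, at 901 to 1000 bp, a median rank of 2847.

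By strength, distal peaks lay in the lower part of the IDR list. Their median signal was 98.8, with a range of 56.1 to 1561, against 141 for the other 2799 autosomal peaks. The signal is the authors' own value and is comparable only within a list, since no source used here states its scale. The median rank of distal peaks was 2424.5, against 1672 for the other autosomal peaks, 1459 for start-proximal peaks and 2407 for the 467 peaks inside genes and over 1000 bp from starts. In strength they were therefore close to the peaks inside genes. Of the distal peaks, 13 (2.35%, 1.26 to 3.98%) were among the 500 strongest peaks of the list, against 482 of the other autosomal peaks (17.2%, 15.8 to 18.7%).

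The distal share of autosomal peaks grew down the IDR list. In the pooled list it was 2.63% in ranks 1 to 500, 10.2% in ranks 501 to 1000, 16.9% in ranks 1001 to 1919, 18.9% in ranks 1920 to 3000 and 27.2% in ranks 3001 to 3838. Among weaker pooled peaks that did not pass the threshold it was 29.0% in ranks 3839 to 10000, and then 21.6% and 19.0% in the next bands. In the band of ranks 3839 to 10000 the replicates differed, with 22.8% in replicate 1 and 28.1% in replicate 2. For comparison, the bases that meet the rule made up 22.8% of the autosomes. Both replicate lists gave a like course over the stronger bands, with 3.05% in replicate 1 and 2.83% in replicate 2 for ranks 1 to 500, and 25.5% in replicate 1 and 24.7% in replicate 2 for ranks 3001 to 3838.

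**Figure D2:**
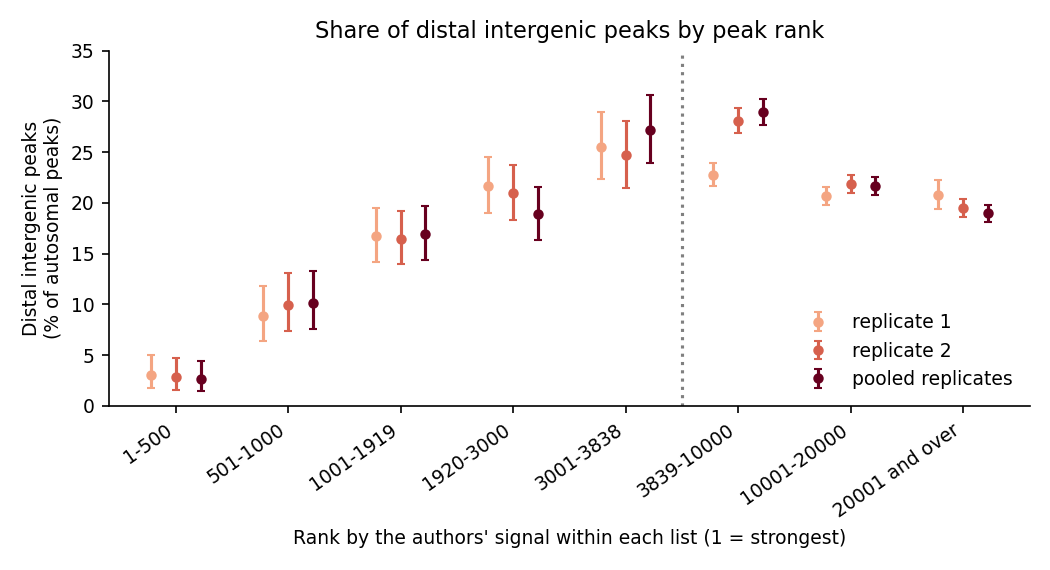
Share of autosomal peaks that meet the distal rule (y axis, %) by rank within a list (x axis), for replicate 1, replicate 2 and the pooled replicates; bars are exact binomial 95% intervals and the dotted line marks the rank at which the pooled IDR list ends. In the pooled list the share was 2.63% among ranks 1 to 500 and 29.0% among ranks 3839 to 10000.

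Most distal peaks were found in each replicate, and the agreement between replicates was lower than for start-proximal peaks and close to that of peaks inside genes. Taking the 3838 strongest peaks of each replicate, 389 distal peaks (70.2%) overlapped one of replicate 1 by at least 1 bp and 493 (89.0%) one of replicate 2. Both held for 353 (63.7%, 59.6 to 67.7%), against 2228 of the other autosomal peaks (79.6%, 78.1 to 81.1%), with 77% over all autosomal IDR peaks. Among peaks inside genes the share was 65.5% (61.02 to 69.8%), and among start-proximal peaks 82.95%. In the complete replicate lists, 536 distal peaks (96.8%) had an overlapping peak in replicate 1 and 552 (99.6%) in replicate 2. Over all autosomal IDR peaks these shares were much the same, at 97.6% and 99.8%. Spearman's rho between replicate ranks was 0.667 over 534 distal peaks, against 0.839 over 2729 other peaks, of which the 441 inside genes had 0.634. These are descriptions over peaks of the same 2 libraries, and 6 distal peaks overlapped a replicate peak that also overlapped another distal peak.

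At equal rank the replicate agreement of distal peaks was near that of other peaks down to rank 3000. In ranks 1001 to 1919, 94.1% of distal peaks were among the strongest of both replicates, against 95.8% of the other peaks, and in ranks 1920 to 3000 the shares were 75.7% and 76.2%. In ranks 3001 to 3838 they were 19.6% of distal peaks and 26.9% of the other peaks. The ranks of distal peaks in the IDR list followed replicate 2 (rho 0.953) more closely than replicate 1 (rho 0.790). The same held for start-proximal peaks (rho 0.977 and 0.915) and for peaks inside genes (rho 0.939 and 0.758).

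**Figure D3:**
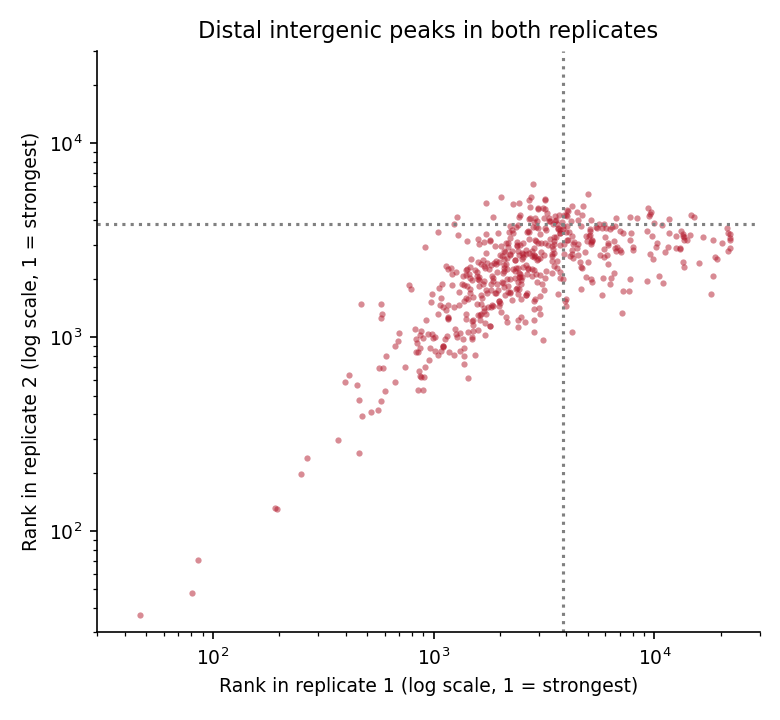
Rank in replicate 1 (x axis, log scale) against rank in replicate 2 (y axis, log scale) of the 534 distal intergenic peaks with an overlapping peak in both lists, each point being 1 peak; dotted lines mark rank 3838. Strong peaks lie along a line and weak ones spread towards larger rank numbers, that is weaker signal, in replicate 1, with rho of 0.667 over all.

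The plot of replicate ranks shows the strong distal peaks close to a diagonal. The strongest distal peak, at chrI:16862-17188, had a signal of 451.5 in replicate 1 (rank 47), 1129 in replicate 2 (rank 37) and 1561 in the IDR list (rank 40). It lay in a gap of 646 bp between the converging genes nlp-40 and rcor-1, 182 bp past the 3′ end of nlp-40, and held the octamer. nlp-40 encodes a neuropeptide-like protein that is released from the intestine and times the defecation cycle. The nearest gene is used here only to place a peak, since these data do not link a peak to a target.

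The peak 1129 bp downstream of the start of F40E3.3 had a signal of 386.4 in replicate 1 (rank 81), 1037 in replicate 2 (rank 48) and 1435 in the IDR list (rank 55). It held none of the 3 motifs. Of the 31-base words around its summit, 29.8% occur more than once in the genome, and how reads from such words were placed is not known. The next strongest, 276 bp past the 3′ end of H12I13.1, had signals of 376.9 in replicate 1 (rank 86), 925.4 in replicate 2 (rank 71) and 1327 in the IDR list (rank 71). It held the TTGGCGC match shown above and lay at an annotated pseudogene. All 3 of these peaks lay downstream of the nearest start.

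The next 3 distal peaks by signal were upstream of the nearest start. A peak 1126 bp upstream of ahcy-1, which encodes S-adenosylhomocysteine hydrolase, ranked 192 in replicate 1, 132 in replicate 2 and 141 in the IDR list, with a signal of 1014 there. Another IDR summit lay 587 bp from it. A peak 1805 bp upstream of F53E10.5, with the TTGCCGC match shown above, ranked 196, 130 and 143 in the same order. The peak 1193 bp upstream of casc-3, a homologue of an exon junction complex protein, ranked 252, 198 and 210, and lay 91 bp from the 3′ end of W08E3.4.

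Further down, unc-60, which encodes actin-depolymerising ADF/cofilin proteins, had a distal peak 3340 bp upstream that ranked 266 in replicate 1, 239 in replicate 2 and 246 in the IDR list. The peak 1165 bp upstream of kin-19, a casein kinase 1 alpha gene, ranked 460, 252 and 297. For both genes another IDR summit lay within 3000 bp, at 2922 bp for unc-60 and 946 bp for kin-19. The peaks at H05C05.2 (rank 314 in the IDR list) and Y17G7B.17 (rank 401) held GA repeats, the second together with the octamer.

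Lower among the 20 strongest distal peaks, egl-9 and hif-1 were each the nearest gene to one. egl-9 encodes the prolyl hydroxylase that marks HIF-1, the hypoxia-inducible transcription factor encoded by hif-1, for degradation. The egl-9 peak, 1772 bp upstream with the octamer, had a signal of 89.0 in replicate 1, 263.1 in replicate 2 and 363.1 in the IDR list. The hif-1 peak, 1981 bp upstream with none of the 3 motifs, had 103.0 in replicate 1, 318.2 in replicate 2 and 409.4 in the IDR list. The rest of the 20 strongest distal peaks lay nearest to F09E5.14, F07H5.13, pqn-42, F54F12.1, grd-6, mtm-3, Y47D9A.1 and aakg-1. Those at F09E5.14 and F07H5.13 lay at annotated pseudogenes, and the one at pqn-42 held the TTCGCGC match shown above. Of the others, grd-6 belongs to the hedgehog-related groundhog genes, mtm-3 encodes a myotubularin lipid phosphatase and aakg-1 a gamma subunit of AMP-activated kinase. All 20 were among the 3838 strongest peaks of both replicates, as was every autosomal IDR peak of ranks 1 to 1000.

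Distal peaks lay more often on the upstream side of the nearest gene than the bases available to them. For 460 (83.0%, 79.6 to 86.1%) the peak was upstream of the nearest start, against 67.0% of the tiled windows. The median distance to that start was 2266 bp, with middle values (the central 50%) of 1438.5 to 3445 bp and a range of 1005 to 34530 bp. Of the 554 peaks, 65 were over 5000 bp from any protein-coding start and 10 over 10000 bp. Of the 65, 10 held the E2F consensus, 8 a GA repeat and 14 the octamer. Over all distal peaks the shares were 8.84%, 17.5% and 19.9% in the same order. The E2F share varied with distance. It was 2.70% at 1001 to 1100 bp, 5.74% at 1101 to 2000 bp and 11.7% at 2001 to 3000 bp. At 3001 to 5000 bp it was 9.43%, at 5001 to 10000 bp 12.7%, and beyond that it was at 3 of 10 peaks. Annotated alternative starts were near few of the 554 peaks. Of these peaks, 4 lay within 1000 bp of the start of some protein-coding transcript and 1 within 500 bp.

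The gaps that held distal peaks had a median length of 5872 bp, against 7442 bp for the gaps around tiled windows. By the direction of the genes on either side, 204 distal peaks (36.8%, 32.8 to 40.99%) lay between divergent genes, against 29.4% of tiled windows. A further 313 (56.5%, 52.3 to 60.7%) lay between genes on the same strand, against 53.7%. Another 37 (6.68%, 4.75 to 9.09%) lay between converging genes, against 16.7%, and the nlp-40 peak was 1 of them. Within 500 bp downstream of a 3′ end lay 62 distal peaks (11.2%), against 13.0% of tiled windows.

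**Figure D4:**
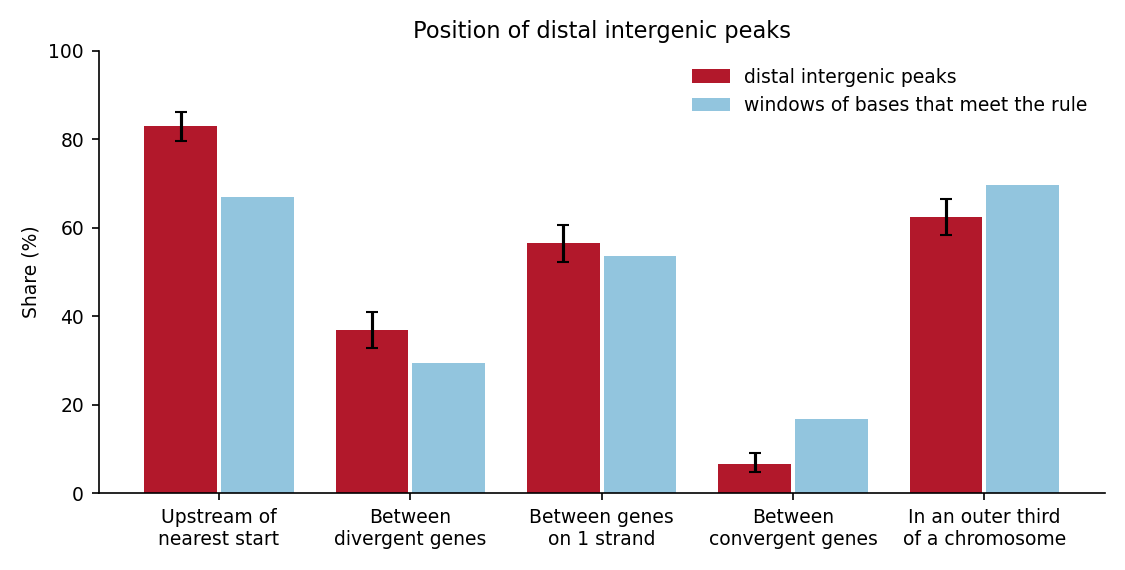
Share (y axis, %) of the 554 distal intergenic peaks (red, with exact binomial 95% intervals) and of 186046 windows tiling the bases that meet the rule (blue) in each position named on the x axis. Distal peaks were upstream of the nearest start in 83.0% of cases, against 67.0% of windows, and between converging genes in 6.68%, against 16.7%.

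Across chromosomes, distal peaks were densest on I and III, where the other autosomal peaks were also most numerous. Chromosome I held 21.7% of distal and 23.4% of other autosomal peaks, III 20.9% and 23.7%, and IV 22.9% and 18.3%. Per megabase of sequence meeting the rule there were 43.9 on chromosome I (120 peaks), 29.2 on II (101), 42.5 on III (116), 26.1 on IV (127) and 18.01 on V (90). Over all autosomes the density was 29.5 per megabase, against 76.8 for peaks within 1000 bp of starts and 13.8 for peaks inside genes. At the chromosome ends, taken as the outer 33.3% of the length at either end, lay 346 distal peaks (62.5%, 58.3 to 66.5%), against 57.1% of the other autosomal peaks and 69.6% of the tiled windows.

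The GA repeat was unevenly spread over the distal peaks of different chromosomes. It was within 50 bp of 36 of 120 distal summits on chromosome I (30%, 21.98 to 39.04%), 19 on II (18.8%, 11.7 to 27.8%), 13 on III (11.2%, 6.10 to 18.4%), 20 on IV (15.7%, 9.89 to 23.3%) and 9 on V (10%, 4.68 to 18.1%). In tiled windows the repeat was also most frequent on chromosome I, at 1.40%, and least on V, at 0.586%. At the chromosome ends it was at 22.3% (17.98 to 27.01%) of distal peaks, against 9.62% (5.97 to 14.5%) in the middle, although tiled windows held it about equally, at 0.901% in the ends and 0.910% in the middle. The octamer ran the same way, at 23.99% (19.6 to 28.8%) of distal peaks in the ends and 12.98% (8.73 to 18.3%) in the middle, but so did its tiled windows, at 0.748% in the ends and 0.421% in the middle.

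The E2F consensus ran the other way, with 6.94% (4.49 to 10.1%) of distal peaks in the chromosome ends and 12.02% (7.93 to 17.2%) in the middle. In tiled windows it was at 4.19% in the ends and 2.20% in the middle. Distal peaks in the middle of chromosomes thus held E2F letters at a higher share against a lower background. Distal peaks with a GA repeat had a median rank of 1943, against 2527 for those without, while with the E2F consensus it was 2470, against 2414 without. In replicate 1 the GA medians were 2403 with and 2524 without, and in replicate 2 they were 2027 and 2455. Ranks by GA content thus differed less in replicate 1. The runs were mostly short, with a median of 11 bases and a range of 8 to 52, and 9 of the 97 distal peaks had a run of 20 or more.

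**Figure D5:**
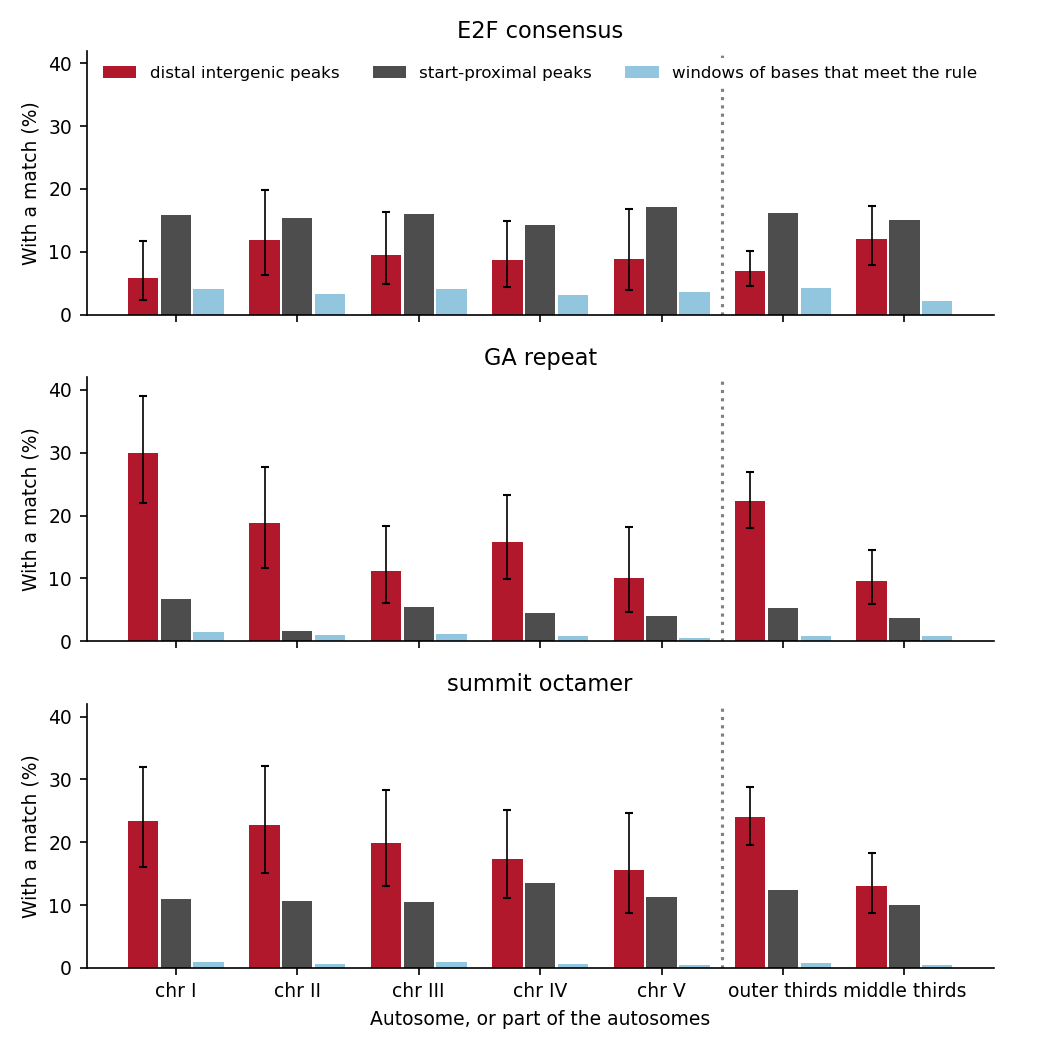
Share of distal intergenic peaks (red, with exact binomial 95% intervals), start-proximal peaks (dark grey) and tiled windows of bases that meet the rule (blue) with a match within 50 bp (y axis, %), by autosome and by part of the chromosome (x axis), for the E2F consensus, the GA repeat and the summit octamer. The GA repeat was at 30% of distal peaks on chromosome I and 10% on V.

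Distal peaks sometimes came in groups. They fell into 459 gaps, of which 76 held 2 or more and 15 held 3 or more. With other members of the same gap were 171 distal peaks (30.9%), with a start-proximal peak 127 (22.9%), and 303 (54.7%) were the only IDR peak in their gap. Another IDR summit lay within 1000 bp of 54 distal peaks (9.75%), against 11.3% of the other autosomal peaks. The start of the nearest gene itself had an IDR summit within 500 bp for 86 distal peaks (15.5%, 12.6 to 18.8%), against 6.60% of the tiled windows. A distal peak was thus more often beside a gene bound at its start than distal sequence was.

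The fullest gaps held 4 distal peaks each, and there were 4 such gaps. Between perm-1 and ptc-1 (chrII:7882768-7893221) the signals ran from 59.3 to 97.9, and ptc-1 encodes a Patched-related protein. Between rho-1, the RhoA GTPase gene, and zip-7 (chrIV:16489022-16502909) they ran from 62.1 to 238.5, and 3 of the 4 peaks held a GA repeat. Between lpin-1, a lipin gene, and letm-1 (chrV:13654130-13661256) the 4 peaks were alike in strength, at 112.7 to 151.8, and held none of the 3 motifs. The fourth gap lay between F54F12.1 and Y39E4B.6 (chrIII:13055443-13070755), with signals of 60.9 to 420.8.

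Other annotated features were near some of the distal peaks. Within 500 bp of the start of another non-coding gene or a pseudogene, or inside one, lay 150 distal peaks (27.1%), against 487 of the other autosomal peaks (17.4%). The share of tiled windows was not computed for these features together, so these values do not show an excess over the sequence available. Genes annotated as ncRNA accounted for 97 (17.5%), against 14.4% of the other autosomal peaks and 6.69% of tiled windows, and 37 of these had the summit inside the ncRNA. Long intergenic non-coding RNA (lincRNA) genes accounted for 14 (2.53%), against 0.536% of the other autosomal peaks and 1.05% of tiled windows. The strongest of these was at linc-128, near cmd-1, the calmodulin gene, with ranks of 893 in replicate 1, 536 in replicate 2 and 639 in the IDR list. Pseudogenes had 17 distal peaks (3.07%), against 0.750% of the other autosomal peaks and 15.6% of tiled windows. piRNA genes had 31 (5.60%), against 1.86% of the other autosomal peaks and 10.5% of tiled windows. For both, the distal share was above that of other peaks and below that of the sequence available.

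Distal peaks at microRNA genes were 6 (1.08%), against 21 of the other autosomal peaks (0.750%) and 0.343% of tiled windows. They lay at mir-52, mir-53, mir-80, mir-228, mir-241 and mir-8209. The strongest, at mir-52, ranked 1043 in replicate 1, 810 in replicate 2 and 891 in the IDR list, with a signal of 252.4, and the weakest, at mir-241 of the let-7 family, ranked 6183, 2996 and 3782 in the same order. The mir-52 peak shared its gap, between irld-55 and Y37A1B.7, with 2 more distal peaks at spacings of 513 and 610 bp.

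Sequence that is repeated in the genome was found at a minority of distal peaks. At 54 (9.75%) some 31-base word within 100 bp of the summit occurs more than once in the genome, against 9.40% of the other autosomal peaks. That share was 18.6% for peaks inside genes and 6.57% for start-proximal peaks. At 6 distal peaks (1.08%) at least 50% of the words are repeated. In the Y50D4A.4 region of chromosome V, 2 distal summits 210 bp apart at the antisense RNA gene anr-58 overlapped the same replicate peaks, ranked 1109 in replicate 1 and 901 in replicate 2. They count as 2 of the 554 but rest on 1 peak of each replicate.

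By nearest gene, the 554 distal peaks pointed to 499 different protein-coding genes, and 47 genes were nearest to 2 or more. Of 13 gene lists, DREAM genes had 1 distal peak (0.181%), against 0.00323% of tiled windows. It lay 4215 bp downstream of the start of lin-9, which encodes a MuvB subunit, with signals of 39.0 in replicate 1 (rank 1545), 197.9 in replicate 2 (rank 811) and 240.9 in the IDR list (rank 961). It held a CHR match but none of the 3 motifs, and it lay at an annotated pseudogene 321 bp from the 3′ end of lin-9. No distal peak was nearest to lin-35 or unc-119.

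Chemoreceptor genes, which cluster on the chromosome arms and encode odorant and pheromone receptors, were nearest to 3 distal peaks (0.542%), against 6.83% of tiled windows. The strongest of these was near sri-5, with a signal of 111.8 and rank 2150. Nuclear receptor genes were nearest to 10 distal peaks (1.81%), against 1.96% of tiled windows, led by nhr-88, with ranks of 1426 in replicate 1, 1066 in replicate 2 and 1226 in the IDR list and a GA repeat at the summit. Neuropeptide genes had 1 distal peak (0.181%), the nlp-40 one, against 1.27% of tiled windows.

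The other lists had few or none. C-type lectins had 3 distal peaks (0.542%), against 0.912% of tiled windows, led by clec-91 (rank 1731). Homeobox genes had 2 (0.361%), against 0.988% of tiled windows, at ceh-48 (rank 1938) and ceh-58 (rank 3308). Ribosomal protein genes had 2 (0.361%), against 0.233%, at rps-25 (rank 2509) and rpl-21 (rank 3621). F-box genes had 2 (0.361%), against 1.65%, at fbxa-167 (rank 3513) and fbxc-32 (rank 3769), and collagens had 1 (0.181%), against 0.635%, at col-108 (rank 3636). Histone, bHLH, Wnt and Argonaute genes were nearest to 0 distal peaks, where 0.0559%, 0.418%, 0.0204% and 0.0919% of tiled windows were nearest to them. With counts this small, the shares of distal peaks rest on a few peaks each.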

How the data were processed

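ChIP-seq peak lists of 2 replicates and of both pooled, and the list that passed an IDR threshold, were used in the ce11 build. Each peak's signal is the authors' deposited value, used only to rank or describe peaks within a list. Peaks were called per replicate and on pooled replicates, per the submitters' deposited manifest, which also names a control that was not analysed here. The aligner, caller and cutoff of IDR were not given in the sources used here. Read depth is unknown. The lists of the ce10 build were not used here.

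Summits were placed on Ensembl release 115 genes and RefSeq WBcel235 sequence with Python 3.11.15, pandas 2.3.3 and numpy 2.4.6. Motifs were searched on both strands within 50 bp. Comparison windows lay 500 bp to either side or tiled the eligible bases every 101 bp. Intervals were exact (Clopper-Pearson, scipy 1.17.1). With 1 group, no test was run. The scripts were tested on simulated peaks. The members, lists and settings were chosen with earlier results of these data known. Named genes are those nearest to the 20 strongest members, and up to 3 per list; genes named for a gap, microRNA or lincRNA were chosen after their values were seen.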

Additional observations from a re-analysis of the deposited data

How the results depend on the processing

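The results were recomputed under other limits, lists and windows. A limit of 2000 bp left 308 distal peaks and the stronger 1919 IDR peaks 196, with a median rank of 1314.5 by construction. A limit of 500 bp gave 786 distal peaks, and 404 of the 554 were also away from other non-coding genes. The distal share of autosomal peaks thus depended on the rule, at 23.4% for 500 bp, 9.19% for 2000 bp and 12.05% away from other non-coding genes. The share upstream of the nearest start was 87.3% at 500 bp and 76.3% at 2000 bp. At 2000 bp, 32.5% lay between divergent genes, 11.7% held the E2F consensus and 31.8% lay at other non-coding genes; at 500 bp, 13.9% had a neighbour within 1000 bp. Windows of 100 bp gave 15.2% with the E2F consensus, 30.1% with a GA repeat and 27.8% with the octamer, and the stronger peaks alone gave 24.5% with a GA repeat. Non-coding shares were 21.8% at 250 bp and 32.7% at 1000 bp. Divergent flanks fell to 28.5% with all gene types as flanks. Both-replicate overlap was 96.4% over complete lists, 57.2% at 50% overlap and 95.9% among the stronger peaks. The outer 25% at either chromosome end held 44.4% of distal peaks, against 53.5% of tiled windows. With all pooled peaks as neighbours 50.2% had one within 1000 bp, and either flanking gene gave 9.39% at a listed gene.

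Using 1 replicate alone gave 553 to 562 distal peaks, a median rank of 2373.5 to 2465.5, a GA share of 14.2 to 16.998% from the lists and 17.2 to 18.3% from summits alone, an octamer share of 15.1 to 19.5% from the lists (summits alone 16.4 to 19.6%) and an E2F share of 7.12 to 7.97%. The share in the chromosome ends was 62.1 to 62.4%, between divergent genes 37.7 to 38.2%, at listed genes 4.16 to 4.98%, and distal among weaker peaks 21.4 to 22.4%. Of 141 recomputed values 35 were marked as moved, which for shares and medians means beyond their interval. The number of distal peaks was not judged by an interval, since 404 and 786 were not marked as moved from 554. The causes were not tested. The octamer and the rank bands were added after seeing the data. No paired analysis was possible because there was only 1 group. Precision is limited by the number of peaks, and read depth is unknown.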

Other observations

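Some 8-base words common at start-proximal summits were scarce at distal ones. GCAAACAC was within 50 bp of 8 distal summits (1.44%), against 214 start-proximal summits (9.38%), and AAGTGCGC of 4 (0.722%), against 128 (5.61%). GCGCTCTA was at 0 of 554 distal summits and at 102 start-proximal ones (4.47%). These words were picked for the size of that difference, so the values are a description.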
